A study of Mus musculus with 6 samples.

Results

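The major histone gene clusters of the mouse were examined in the DNA methylation of lung endothelial cells, the cells that line blood vessels. The windows were chosen by position: all 1-kb windows of chr13:21700001-22050000 and chr13:23500001-23780000 (build mm10) that had a value in all 6 samples. This gave 511 of the 1684140 windows in the table, 291 in the first stretch (the first cluster) and 220 in the second (the second cluster). RefSeq places 24 histone genes in the first and 30 in the second, 54 in all, of which 52 are protein-coding and 2 are pseudogenes (H2ac14 and H2ac5-ps). A window that touched at least 1 base of such a gene was called a histone gene window (120 windows), and the remaining 391 were called windows between. The cells were sorted by flow cytometry from lungs of wild-type mice and profiled by bisulfite sequencing of the whole genome after tagmentation, which reads the methylated share of cytosines in small amounts of DNA. There were 3 samples titled Aged and 3 titled mAdu, with no strain or sex given in the labels. The study names ages of 18 and 8 months without tying them to the titles, and the Aged samples were taken as the 18-month group and the mAdu samples as the 8-month group.

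Histones are the proteins around which DNA is wound. H2A, H2B, H3 and H4 form the core of the nucleosome, and the linker histone H1 binds where the DNA enters and leaves it. The genes of these clusters are replication-dependent: they are short, mostly without introns, and transcribed in S phase, when new DNA has to be packaged. Many copies encode nearly the same protein, and H2A and H2B genes often lie head to head with 1 short promoter between them. H1f6, which encodes the testis linker histone H1t, also lies in the second cluster. Methylation of CpG sites at a promoter usually goes with a silent gene.

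Promoters from the RefSeq table (GRCm38.p6, the genome of mm10) are shown for genes that span the range of CpG number and methylation. Each is the 250 bases before the gene start, read 5′ to 3′ on the strand of the gene, and capitals mark CpG dinucleotides. H1f6 (chr13:23695561-23695810, plus strand) and H1f4 (chr13:23622559-23622808, minus strand) are linker histone promoters with 10 and 19 CpG in these bases, and start windows at 71.7% and 0.991% methylation. H4c1 (chr13:23761250-23761499, minus strand) is rich in CpG with 27, and its start window was at 0.838%. H2bc15 (chr13:21753826-21754075, plus strand) holds 3, and its start window was at 1.48%. Most of its bases shown lie in the window before, the start window of H2ac15, at 1.99%. H2bc23 (chr13:21810200-21810449, minus strand) belongs to a pair of copied genes and had a start window at 49.1%.
H1f6: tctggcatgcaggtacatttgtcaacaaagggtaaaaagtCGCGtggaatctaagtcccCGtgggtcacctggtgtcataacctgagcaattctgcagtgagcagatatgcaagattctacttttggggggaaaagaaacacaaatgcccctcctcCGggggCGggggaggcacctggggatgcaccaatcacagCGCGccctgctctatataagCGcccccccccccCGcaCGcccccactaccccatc
H1f4: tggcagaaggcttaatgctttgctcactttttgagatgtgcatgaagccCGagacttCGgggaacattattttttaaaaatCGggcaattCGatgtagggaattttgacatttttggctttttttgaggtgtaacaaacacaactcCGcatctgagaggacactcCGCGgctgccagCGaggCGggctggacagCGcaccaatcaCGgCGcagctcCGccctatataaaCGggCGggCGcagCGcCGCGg
H4c1: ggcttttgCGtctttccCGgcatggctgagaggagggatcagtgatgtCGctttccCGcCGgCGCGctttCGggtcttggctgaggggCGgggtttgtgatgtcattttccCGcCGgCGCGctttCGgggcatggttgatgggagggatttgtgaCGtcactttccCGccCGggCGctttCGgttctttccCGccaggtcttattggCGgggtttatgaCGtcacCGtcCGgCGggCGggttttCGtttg
H2bc15: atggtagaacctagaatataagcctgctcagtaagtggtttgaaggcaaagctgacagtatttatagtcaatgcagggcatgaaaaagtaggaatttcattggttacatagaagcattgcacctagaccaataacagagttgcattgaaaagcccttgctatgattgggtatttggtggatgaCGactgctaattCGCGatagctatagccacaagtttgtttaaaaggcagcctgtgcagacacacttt
H2bc23: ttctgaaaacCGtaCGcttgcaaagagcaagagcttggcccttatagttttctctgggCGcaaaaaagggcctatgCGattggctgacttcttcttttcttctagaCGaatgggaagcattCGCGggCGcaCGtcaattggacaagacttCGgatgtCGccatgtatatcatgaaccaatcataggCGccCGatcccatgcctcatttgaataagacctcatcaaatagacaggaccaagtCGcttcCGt
The whole stretch between a head-to-head pair is shown for H2ac8 and H2bc8 (chr13:23571221-23571399, plus strand, 179 bases), where capitals mark motifs: CCAAT on either strand, the octamer ATTTGCAT bound by POU factors, and the TATA motif TATAAA.
H2ac8-H2bc8: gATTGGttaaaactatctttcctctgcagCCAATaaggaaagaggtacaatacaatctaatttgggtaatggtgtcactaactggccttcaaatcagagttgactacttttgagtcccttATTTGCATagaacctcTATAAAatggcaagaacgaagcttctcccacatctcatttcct
This stretch holds 1 CpG, and the 1-kb window that contains both starts averaged 0.539% methylation. That value also covers DNA outside the stretch.

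All values below are methylation levels in percent, made from the deposited mean fraction of each window, and age differences are in percentage points, aged minus mAdu. A single level given for a window or gene is the mean of the 6 samples. Read depth is unknown. Nothing in the labels says that the 3 samples within a group are different animals, so p-values measure only their spread, which could be technical. Over all windows the samples averaged 73.1 to 73.7% in aged and 73.3 to 73.6% in mAdu. The median level over gene windows was 39.4% for 12 endothelial marker genes, against 64.2% for 8 epithelial, 70.5% for 8 blood and 68.6% for 8 mesenchymal markers. A middle level in sorted cells does not tell whether cells, alleles or gene copies differed. Among the 511 windows, 27 held an extreme value in 1 or more samples, within 0.01 points of 0 or of 100%, and 23 of these lay among the 46 windows of chr13:21800001-21850000, a block of near-identical histone genes described apart below.

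Histone gene windows were far less methylated than the DNA around them. They averaged 30.95, 31.04 and 29.4% in the aged samples and 29.6, 31.1 and 27.3% in the mAdu samples, against 59.9, 62.5 and 63.2% in aged and 61.9, 62.8 and 63.6% in mAdu for the windows between. Every sample thus showed lower methylation over the genes than between them, and no sample's mean of 1 class came near the other class. The difference was -32.4 points over the 6 samples (SD 2.50), -31.4 ± 2.46 in aged and -33.5 ± 2.54 in mAdu (SD, n = 3 each), with an exact two-sided sign permutation p of 0.031, the smallest that 6 samples can give and also the Benjamini-Hochberg value over the 7 such differences computed. The difference was -36.0 points in the first cluster and -30.7 points in the second cluster. All 7 differences gave the same sign permutation p of 0.031, which reflects only that the sign was the same in all 6 samples. It does not measure the spread among windows or genes.

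The mean hides 2 kinds of histone gene window. The median histone gene window was at 5.90%, with 63 of 120 under 10% and 38 over 50%, whereas the median window between was at 70.7%, with 27 of 391 under 10% and 288 over 50%. Compact genes, with annotated spans of at most 1000 bp, filled 66 windows with a median of 1.72%, of which 57 were under 10%. Their means were 7.58, 7.79 and 6.72% in aged and 8.51, 7.69 and 6.17% in mAdu. The other 54 histone gene windows belong to 5 H2B genes with RefSeq spans of 3788 to 37455 bp (H2bc22, H2bc23, H4bc24, H2bc6 and H2bc4). These long-span windows averaged 59.5, 59.5 and 57.1% in aged and 55.3, 59.8 and 53.1% in mAdu, close to the windows between. H2bc6 shows the pattern within 1 gene: its 2 annotated starts lay in windows at 0.240 and 0.459%, while its 27 windows averaged 60.3%.

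**Figure D1:**
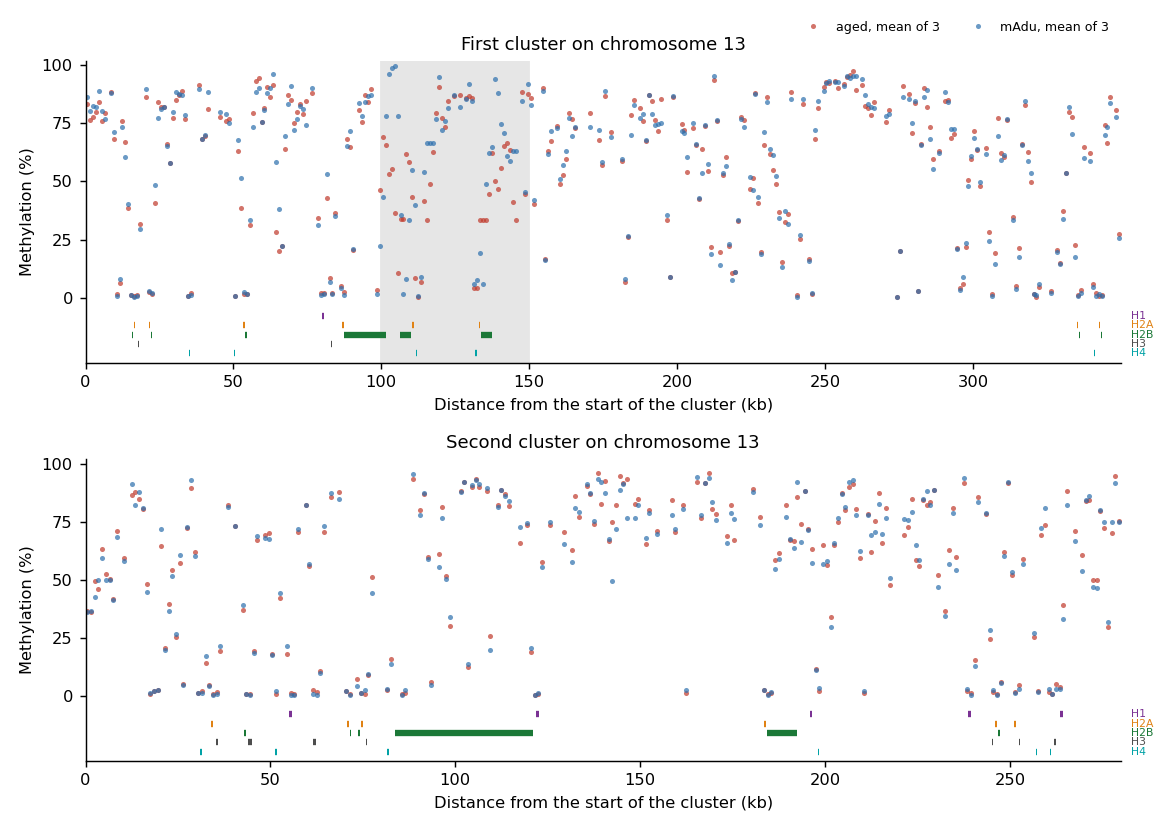
Methylation (%) of each 1-kb window along both clusters, mean of the 3 aged samples in red and of the 3 mAdu samples in blue, against distance from the start of the cluster (kb). Bars below 0 mark the annotated spans of the histone genes by class, and the grey band is the block of copied genes. Windows over compact genes lie near the bottom (median 1.72%) and windows between mostly near 70.7%.

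The fall in methylation was narrow. With windows placed by their centre relative to the nearest histone gene start, the 43 windows at the start averaged 5.69 ± 0.792% in aged and 6.36 ± 1.74% in mAdu (SD, n = 3 each). One window downstream the level was 22.3 ± 0.398% in aged and 20.5 ± 1.44% in mAdu, and one window upstream it was 31.3 ± 0.899% in aged and 31.9 ± 1.06% in mAdu. At 3 kb on either side the levels were 71.4 to 72.3% in both groups. By distance from the gene itself, windows between that lay within 1 kb averaged 43.9% in aged and 47.4% in mAdu, those at 1 to 5 kb 69.5% in aged and 71.9% in mAdu, those at 5 to 20 kb 65.6% in aged and 66.6% in mAdu, and those farther away 60.5% in aged and 59.9% in mAdu. Without the copied block, the windows within 1 kb averaged 44.2% in aged and 44.3% in mAdu, and those at 1 to 5 kb 71.7% in aged and 70.6% in mAdu. The spread between samples was wide at 5 to 10 kb downstream, where the SD was 7.40 to 13.7 in aged and 3.03 to 11.7 in mAdu.

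**Figure D2:**
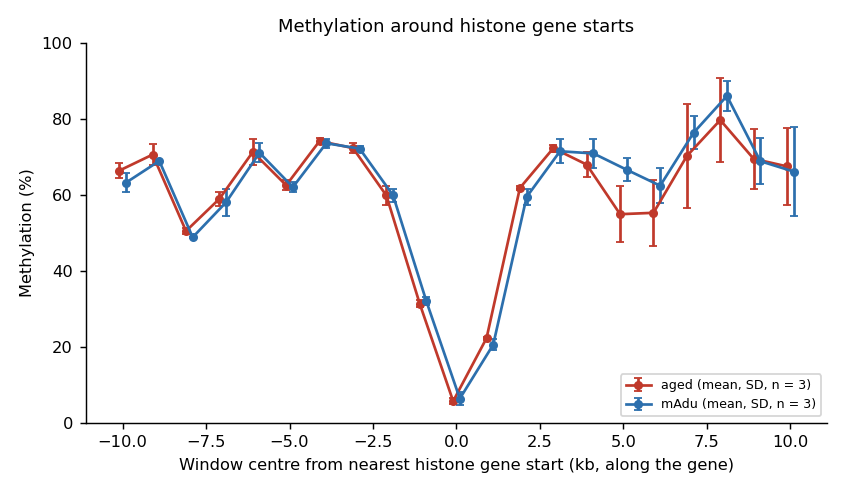
Mean methylation (%) of cluster windows by distance of their centre from the nearest histone gene start (kb, positive along the gene), with SD over 3 samples, aged in red and mAdu in blue. Both curves drop to about 6% at the start (5.69% in aged, 6.36% in mAdu) and are back above 70% at 3 kb.

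Methylation was also low at the transfer RNA genes that fill the gaps of these clusters, 33 in the first cluster and 13 in the second cluster. The 45 windows between that hold such a gene averaged 26.96, 26.7 and 26.8% in aged and 26.2, 26.1 and 26.7% in mAdu, 40.4 points below the other windows between (exact two-sided sign permutation p = 0.031, lower in 6 of 6 samples). All 332 autosomal windows with a transfer RNA gene, these 45 included, averaged 25.9% in aged and 25.9% in mAdu. Their median was 13.99% with 45.2% of them under 10%, against 20.3% with 31.1% under 10% for the 45, and the difference was not tested. Of the 27 windows between that were under 10%, 14 held a transfer RNA gene, 5 more lay within 1 kb of one, 3 others lay within 1 kb of a histone gene, and 5 did neither. The lowest window between, at 0.333%, was chr13:21974001-21975000, 32 bp from the methionine transfer RNA gene n-TMcat8. The next were the windows starting at 23556001 beside H1f3 (0.515%), at 21734001 beside H4c11 (0.612%), at 22021001 over n-TRacg1 (0.670%) and at 21940001 over n-TDgtc12 and n-TSaga8 (0.763%). At the other end, 3 of the 5 highest windows between lay in Zfp184, a zinc finger gene, led by chr13:21957001-21960000 at 95.1 to 96.5%, and the others started at 23668001 (94.9%) and 21912001 (94.7%). Windows over protein-coding genes that encode no histone averaged 69.4% in aged and 69.2% in mAdu (40 windows).

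**Figure D3:**
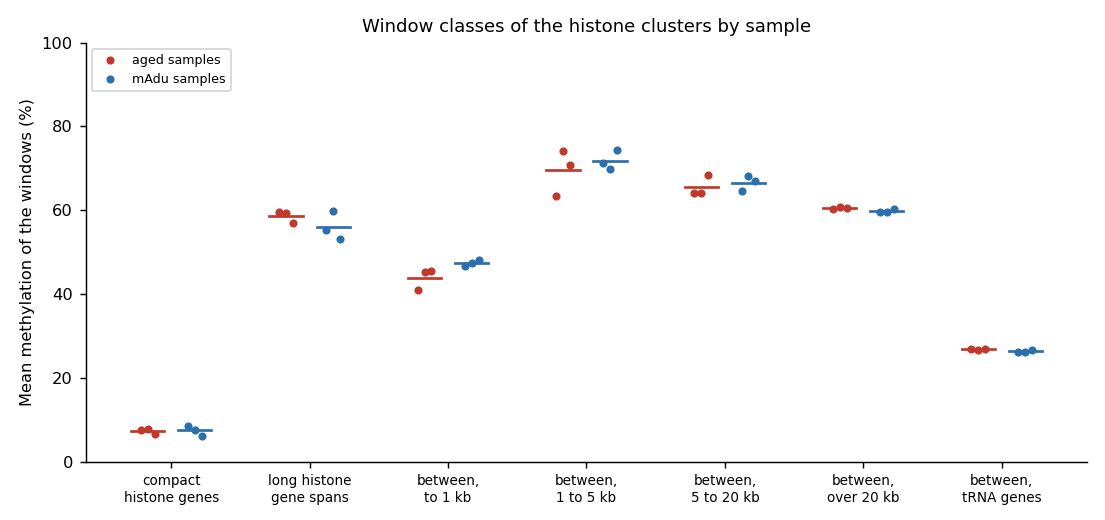
Mean methylation (%) of window classes in each sample, aged in red left of mAdu in blue, with lines at the group means. Compact histone gene windows lie at 6.17 to 8.51% and windows with transfer RNA genes at 26.1 to 26.96%, against 59.6 to 60.7% for windows more than 20 kb from a histone gene.

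Histone gene windows were 29.4 points below the 188 windows over the 133 genes between both clusters, which averaged 59.3% in aged and 59.3% in mAdu. They were 34.0 points below the 186 windows over 24 histone genes at other loci. In both comparisons all 6 samples had the same direction (exact two-sided sign permutation p = 0.031). The other loci include long replacement histone genes, and taken by gene the 13 genes of the smaller replication-dependent clusters had a median of 3.56% and the 11 replacement histone genes a median of 43.1%, against 2.22% for the 54 genes here. Hox genes, a developmental family known for wide unmethylated stretches, averaged 21.1% in aged and 21.3% in mAdu over 286 windows, and histone gene windows lay 8.71 points above them (exact two-sided sign permutation p = 0.031). With medians over windows in place of means, that last difference turned to -3.41 points. By 100-kb intervals, the first of the second cluster, which holds 15 histone genes, ranked 17 from the lowest of 24009 on the autosomes, with 38.5% in aged and 38.3% in mAdu. The interval starting at 22000001, which reaches past the end of the first stretch, ranked 74, with 50.6% in aged and 49.9% in mAdu. The highest of the 7, starting at 23600001 and with 6 histone genes, ranked 2950 and held 68.4% in aged and 66.9% in mAdu. Rank did not simply follow the number of histone genes. The interval starting at 21900001 held 0 of them and ranked 416, and the one starting at 21800001 held 7 and ranked 428. The latter includes the copied block, whose values are uncertain, and its samples ran from 49.2 to 64.3%.

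By gene, taken as the mean of the windows that each gene touches, 39 of the 52 protein-coding histone genes were under 10%, and the median was 2.22% against 72.98% over all 44640 autosomal genes. These medians are not like for like: most histone genes touch only 1 or 2 windows, whereas a long gene averages its whole span. Start windows are compared below. The lowest were the H3 gene H3c7 (0.521%), the H2B gene H2bc8 (0.539%), the H2A gene H2ac13 (0.548%), the linker gene H1f4 (0.615%) and the H4 gene H4c12 (0.660%). The highest were H1f6 (65.9%), the long-span H2B genes H2bc6 (60.3%), H2bc22 (56.98%) and H2bc4 (52.5%), and the copied H2A gene H2ac23 (49.1%). These levels and ranks depend on the windows that a short span touches. With spans widened by 500 bp, H4c12 moved to 33.1%, H1f4 to 19.3%, H3c7 to 6.71% and H1f6 to 47.7%. H2bc8 (1.27%) and H2ac13 (0.875%) stayed low, and H2bc6 stayed at 60.3%. Among linker histone genes, H1f1, H1f2, H1f3, H1f4 and H1f5 are somatic, and H1f6 is the testis form. H1f6 stood at 67.8, 69.2 and 65.7% in aged and 63.4, 63.1 and 66.2% in mAdu, and H1f4 at 0.182, 0.246 and 0.780% in aged and 0.143, 0.234 and 2.11% in mAdu. Every sample held H1f6 far above H1f4. The other testis genes of the family, the H2B gene H2bc1 and the H2A gene H2ac1, lie outside both stretches, at chr13:23933725-23934156 and chr13:23934437-23934913, and were higher still, at 92.5% in aged and 92.1% in mAdu for H2bc1 and at 91.4% in aged and 89.3% in mAdu for H2ac1.

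**Figure D4:**
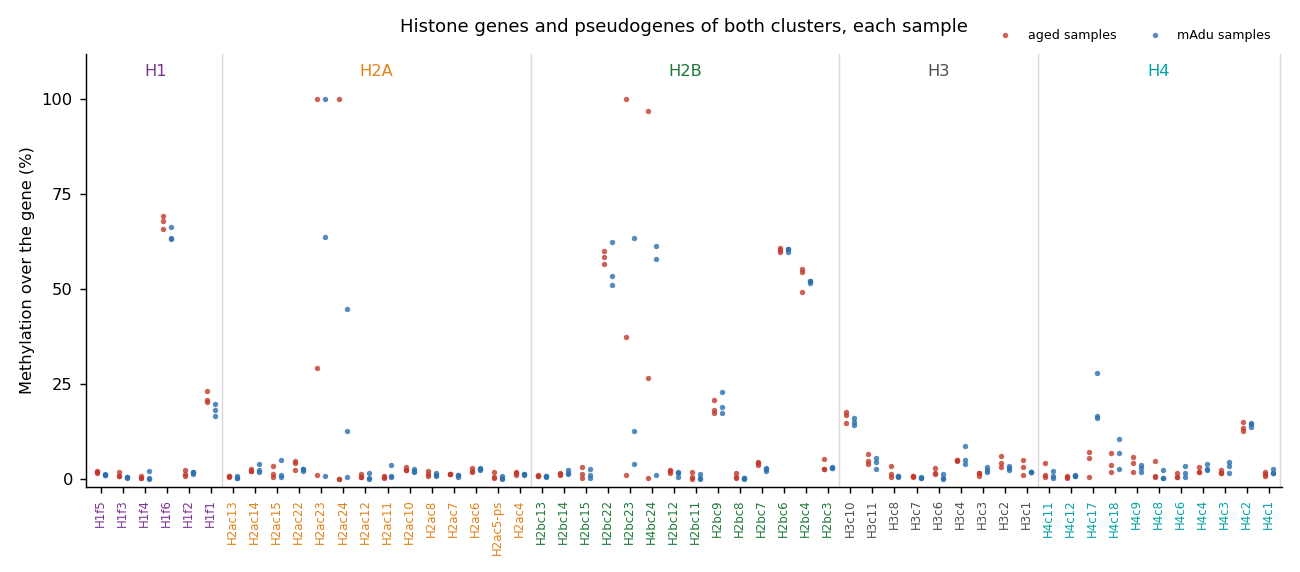
Methylation (%) over each of the 54 histone genes and pseudogenes, 1 point per sample, aged in red and mAdu in blue, ordered by class and position. Most genes lie under 10% in all samples, H1f6 lies between 63.1 and 69.2%, and the points of H2ac23, H2ac24, H2bc23 and H4bc24 spread from near 0 to near 100%.

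The windows that hold the gene starts were nearly all unmethylated. RefSeq promoters were present for 49 of the 54 genes and gave 50 starts, with H2bc6 counted at both of its starts. H2ac14, H3c7, H2bc4, H2ac5-ps and H3c1 had no entry. The median start window was at 1.49%, against 21.6% for 28805 other autosomal promoters. Of the 50 starts, 43 (86%) were under 10%, against 43.5% of the other promoters, and 42 were under 5%. The exceptions above 10% were H1f6 (71.7%), the copied pairs H2bc23 with H2ac23 (49.1%) and H2ac24 with H4bc24 (26.3%), H4c17 (24.2%) and H4c2 (26.1%). The start of H4c2 lies close to the end of its window, and its next window, which holds most of the gene, was at 1.89%. By class, median start levels were 2.08% for H1 (6 starts), 1.496% for H2A (12), 0.754% for H2B (14), 1.54% for H3 (7) and 1.57% for H4 (11).

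Start windows were low also where the 300-base promoter had few CpG sites. The level is that of the whole 1-kb window that holds the start, not of the promoter bases alone. Such a window also holds other DNA, its CpG number is unknown, and part of the promoter can lie in the window beside it. Promoters of 300 bases (250 before to 50 after the start) held 3 to 27 CpG in histone genes, with a median of 11. With 5 to 9 CpG, all 16 histone starts were under 10% with a median of 1.58%, whereas 5749 other autosomal promoters in that range had a median of 60.1%, with 16.6% of them under 10%. With 10 to 14 CpG the medians were 1.38% for 15 histone starts and 8.31% for 2731 others, and with 15 to 19 they were 1.59% for 14 histone starts and 2.95% for 2548 others. The share under 10% was 86.7% against 53.4% of others with 10 to 14 CpG, but 71.4% against 77.9% of others with 15 to 19, where the copied pairs lie. At most 4 CpG were found for 3 histone starts, whose median was 1.48%, against 71.9% for 9288 others. Across the 50 starts, CpG number and level had a Pearson r of 0.139 and a Spearman rho of 0.131, a description of starts that share windows and chromosome. No test was made of these differences.

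**Figure D5:**
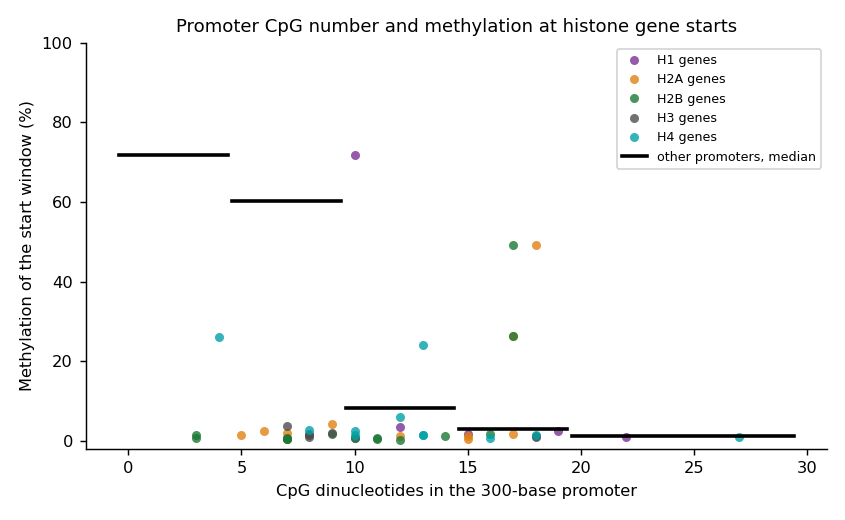
Mean methylation of the start window (%, 6 samples) against the number of CpG in the 300-base promoter, 1 point per histone gene start, coloured by class, with black bars at the median of all other promoters in each CpG range. Histone starts with 5 to 9 CpG all lie below 5%, against a median of 60.1% for other promoters.

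The motifs marked in the H2ac8 and H2bc8 stretch recurred through the clusters. On either strand of the 300 bases, CCAAT was present at 42 of the 50 histone starts (84.0%). Its share was 37.3% of all 31396 autosomal promoters in the table, the histone starts included. CCAAT was present at every start of H1, H2A, H2B and H3 but only 3 of 11 of H4. TATAAA was present at 29 (58.0%), against 13.6% of all. ATTTGCAT was present at 9 (18.0%), against 1.75% of all, and these were 4 H2A and 5 H2B starts. Histone promoters were also lower in G and C, with a median share of 45.2%, against 54.3% for 28805 other autosomal promoters. The motif shares were not adjusted for this. None of the 3 motifs contains another, the promoters of a head-to-head pair overlap so that 1 match can count for both, and a match describes the sequence, not binding. There were 9 head-to-head H2A and H2B pairs with starts separated by 163 to 267 bases, and in 7 of them both starts shared a window, so their values are 1 measurement. Outside the copied block the windows of these pairs ranged from 0.539 to 1.99%.

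In the block of copied genes, values differed widely between samples. Its 46 windows averaged 37.5, 63.9 and 56.4% in aged and 55.6, 63.0 and 62.4% in mAdu. It holds the copied pairs H2bc23 with H2ac23 and H2ac24 with H4bc24 (Hist1h2br in older naming, an H2B gene), the H4 genes H4c17 and H4c18, and the end of H2bc22. The promoters of H2bc23 and H4bc24 are identical over 300 of 300 bases, those of H2ac23 and H2ac24 over 200 of 200 overlapping bases, and those of H4c17 and H4c18 over 298 of 299. The values of these genes are given as uncertain because copies this alike can share reads. Neither read length nor mapping quality is given with the data, and the part of read placement in the spread was not tested. H2ac23 had 100, 1.0 and 29.2% in the aged samples and 63.6, 99.997 and 0.906% in the mAdu samples. H2ac24 had 0.049, 100 and under 0.01% in aged and 44.7, 12.6 and 0.505% in mAdu. Each gene thus ran from 1% or less to 100% within the aged samples, and the groups overlapped. H2bc23 had 100, 1.008 and 37.4% in aged and 12.7, 63.5 and 4.0% in mAdu, and H4bc24 had 0.363, 96.8 and 26.7% in aged and 58.0, 61.5 and 1.20% in mAdu. The copies were opposite in aged replicates 1 and 2: H2ac23 and H2bc23 were high with H2ac24 and H4bc24 low in replicate 1, and the reverse in replicate 2. The median range over the 6 samples was 98.3 points for the 46 windows of the block, against 3.85 points for histone gene windows outside it, 9.94 points for windows between outside it and 9.31 points over all windows. H4c11 and H4c12, elsewhere in the first cluster, share 274 of 286 promoter bases and were both low, at 1.57 and 0.660%.

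Between ages, no window of the clusters passed the test. With limma on all 1683697 windows with 6 values and Benjamini-Hochberg adjustment, 0 of the 511 were called at an adjusted p under 0.05, where 0.0211% of all windows were. At an unadjusted p under 0.05 there were 27 (5.28%), against 4.67% of all windows, and the groups did not overlap in 53 windows: 32 were higher in aged (background 4.76%) and 21 lower (background 5.28%), which makes 10.4% of the 511. The aged mean was higher in 264 and lower in 247. Without aged replicate 3 the count called became 1, the window starting at 21804001 in the block (difference -91.1, adjusted p = 0.0103), and without mAdu replicate 1 it became 1, the window starting at 21805001 (difference -89.0, adjusted p = 0.0225). Over all 1683697 windows these fits called 831 and 789, in place of 355 with all samples. With limma by gene, 0 of 54 histone genes were called, where 0.0112% of all genes were, 4 had an unadjusted p under 0.05 (7.41%, against 5.09% of all genes) and 7 had groups without overlap, 5 higher in aged (background 4.68%) and 2 lower (background 5.54%). By start window, 0 of 50 histone starts were called with limma, against 0.0104% of all gene starts, and 3 (6%) had an unadjusted p under 0.05, against 4.58% of all. Of these 3 starts, H2ac22 and H2bc22 share a window and are 1 measurement, and the other was H4c17. The gene difference was positive for 35 and negative for 19, with a median of 0.298 points, against -0.044 over all genes. With limma by 100-kb interval, 0 of 7 were called, as were 0.0% of the 24009 tested, and 0 of the 7 had an unadjusted p under 0.05, against 4.56% of all.

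The 95% interval of the age difference lay within 5 points on both sides of 0 for 43 of 54 genes (79.6%) and for 64 of 120 histone gene windows (53.3%), but for 40 of 391 windows between (10.2%). Most histone genes lie near the floor of the scale (median 2.22%, against 70.7% for windows between), where a span of 5 points either way is wide relative to the level, so these shares do not show that histone genes were more stable with age.

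No histone gene passed the test, and those with the smallest p-values are given here as values. H2bc7, an H2B gene at chr13:23573760-23574207, had 4.30, 3.84 and 4.53% in aged and 2.83, 2.23 and 2.66% in mAdu. All aged samples were above all mAdu samples, by 1.65 ± 0.363 points (SE), and limma gave an unadjusted p of 0.00495 and an adjusted p of 0.909. Its start window, shared with H2ac7, differed less (1.36% in aged and 0.989% in mAdu) than the window at 23573001, with 7.29, 6.28 and 7.68% in aged and 4.49, 3.86 and 4.12% in mAdu. H1f1, a somatic linker histone gene, had 20.4, 23.1 and 20.8% in aged and 19.9, 16.5 and 18.1% in mAdu, without overlap (3.26 ± 1.18 points, SE; limma adjusted p = 0.958). The start window of H1f1 averaged only 3.83% in aged and 3.08% in mAdu, with overlapping groups. H1f6 was 3.36 ± 1.32 points higher in aged with overlapping groups (limma adjusted p = 0.967), and its start window averaged 71.9% in aged and 71.5% in mAdu. H1f5, another linker gene, averaged 1.91% in aged and 1.18% in mAdu, and the H3 gene H3c6 averaged 1.95% in aged and 0.595% in mAdu.

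On the lower side, H4c17, one of the copied H4 genes in the block, had 5.68, 0.549 and 7.13% in aged and 28.0, 16.0 and 16.6% in mAdu. The groups did not overlap, and the difference was -15.7 ± 3.77 points (SE; limma unadjusted p = 0.00719, adjusted p = 0.909). Its near-identical copy H4c18 had 1.80, 6.79 and 3.71% in aged and 10.5, 6.92 and 2.76% in mAdu, with overlap. As members of the copied block, both are given as uncertain. The next in order, H3c3, had 1.41% in aged and 2.46% in mAdu. H4c3 had 1.92% in aged and 3.19% in mAdu, H2ac11 had 0.570% in aged and 1.67% in mAdu, and H4c1 had 1.32% in aged and 1.91% in mAdu. None of these differences passed the test.

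Of single windows, those with the smallest p in each direction all had groups without overlap and a limma adjusted p of 0.978. Higher in aged were, besides the H2bc7 window, the windows starting at 21774001, 4832 bp from H1f5 (84.7% in aged and 74.2% in mAdu), at 23658001 (84.3% in aged and 77.7% in mAdu), at 22007001 in Prss16, a serine protease gene (18.99% in aged and 14.5% in mAdu), and at 21894001 (85.6% in aged and 75.4% in mAdu). Lower in aged, besides the start window of H4c17, was the window starting at 21805001, 412 bp from H2bc23 in the block, with 7.14, 1.95 and 22.3% in aged and 35.7, 99.1 and 99.8% in mAdu. Also lower in aged were the windows starting at 21781001, 376 bp from H1f5 (42.9% in aged and 53.3% in mAdu), at 21984001 in Pom121l2 (81.98% in aged and 89.3% in mAdu) and at 21723001, 475 bp from H2bc14 (40.8% in aged and 48.5% in mAdu).

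Class means gave small age differences. The histone gene windows averaged 30.5 ± 0.940% in aged and 29.3 ± 1.94% in mAdu (SD, n = 3 each), a difference of 1.13 points (exact two-sided permutation p = 0.7, with 0.1 the smallest that 3 against 3 can give). Without mAdu replicate 3 this difference was 0.110, and over the 6 samples left out in turn it ran to 2.04. The windows between averaged 61.9 ± 1.75% in aged and 62.8 ± 0.887% in mAdu (difference -0.927, exact p = 0.6), and this difference became 0.061 without aged replicate 1. Without the block, the histone gene windows stood at 29.7, 29.4 and 29.3% in aged and 29.1, 28.7 and 29.045% in mAdu, all aged samples above all mAdu samples by 0.547 points on average. Compact gene windows without the block stood at 6.42, 6.64 and 6.55% in aged and 6.28, 5.82 and 6.12% in mAdu, again without overlap, by 0.463 points. Windows between without the block differed by 0.199 points with overlapping groups. Among them, windows at 1 to 5 kb had groups without overlap and a larger difference, 1.10 points, while those within 1 kb overlapped (-0.075). Absence of overlap was thus not particular to histone gene windows. The exact two-sided permutation p was 0.1, unadjusted, for the histone gene, compact gene and 1 to 5 kb windows. The compact gene windows are part of the histone gene windows. The part of the copied genes in these means was not tested further.

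By histone class, mean gene levels were 15.6, 16.1 and 15.3% in aged and 14.4, 13.8 and 15.1% in mAdu for the 6 H1 genes, without overlap, with 4 of 6 genes higher in aged. The mean difference of 1.24 points (exact two-sided permutation p = 0.1, the smallest possible, and 0.167 with Benjamini-Hochberg adjustment over the 5 classes) came mostly from H1f6 (3.36) and H1f1 (3.26), and with medians over genes it was 0.350 (exact p = 0.3). The 9 H3 genes had 4.22, 4.62 and 4.41% in aged and 3.60, 3.65 and 4.13% in mAdu, also without overlap, with 7 of 9 genes higher in aged. Their mean difference of 0.623 points (exact p = 0.1) became 0.490 with medians (exact p = 0.5). The 11 H4 genes had 3.47, 2.95 and 3.73% in aged and 6.98, 4.61 and 3.96% in mAdu, lower in aged by 1.80 points on average, but by 0.901 points without mAdu replicate 1 and by 0.160 points with overlapping groups once H4c17 and H4c18 were left out. H2A genes averaged 7.80% in aged and 7.49% in mAdu (12 genes), and H2B genes 20.96% in aged and 19.03% in mAdu (14 genes). The H2A difference of 0.313 points became -0.547, -0.746 and -2.64 without aged replicate 1, aged replicate 2 and mAdu replicate 3, and the H2B difference of 1.93 became -0.108 without mAdu replicate 3. Classes share windows where genes are neighbours.

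The genes that supply and process histones elsewhere in the genome were taken as a list of 32, of which 31 were measured. They cover the S-phase activators of histone transcription, the machinery that cuts histone mRNA and the chaperones that carry histones to DNA. The aged mean was higher in 10 and lower in 21, against 21476 higher and 23163 lower over all genes, with a median difference of -0.139 points, and with limma 0 passed, where 0.0112% of all genes did. An unadjusted p under 0.05 was found for 1 of the 31, where 5.09% of all genes had one, so the count gives no result about the list. That gene was Srrt, which links the mRNA cap to histone mRNA processing, with 64.0 ± 0.369% in aged and 65.6 ± 0.247% in mAdu (SD, n = 3 each; limma adjusted p = 0.954). The next were Ccne1, which encodes the cyclin E1 that drives entry into S phase (75.2% in aged and 73.6% in mAdu), Lsm10 of the U7 particle that cuts histone mRNA (55.5% in aged and 56.8% in mAdu), and Chaf1a, a chromatin assembly subunit (80.1% in aged and 81.1% in mAdu).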

How the data were processed

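DNA methylation was measured in 3 aged and 3 mAdu samples of sorted lung endothelial cells from 30 ng of DNA each, with 3 sequencing libraries per sample, per the labels' protocols. BWA 0.7.8 and the build mm10 are named in the submitters' processing notes. The CpG caller and any coverage filter were not named there, in the labels or in the file. The authors deposited a mean methylation fraction per window of 1000 bp, without coverage or CpG number, so the depth of every value is unknown and windows were weighted equally. Fractions were multiplied by 100.

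Of 1684140 windows, 1683697 had 6 values. Genes and promoters came from RefSeq tables of GRCm38.p6. A gene's level was the mean of the windows it touched. limma 3.58.1 (R 4.3.3) with a variance trend and Benjamini-Hochberg adjustment over all windows, genes or 100-kb intervals (at least 10 windows) tested aged against mAdu, after a test on simulated data. Sample means were compared by exact permutation. Named were the 5 highest and 5 lowest genes and windows between, and the 5 with the smallest p each way. The members and lists were chosen with earlier results of these data known. Alternatives covered scale, variance trend, extreme values, gene span, overlap, the copied block and left-out samples.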

Additional observations from a re-analysis of the deposited data

How the results depend on the processing

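With the logit scale (offset 0.01), no variance trend, no windows of extreme values, other gene spans, the gene start window or 50 windows per interval, 0 cluster windows, histone genes and intervals passed. Over all windows the logit scale gave 145 calls, no variance trend 287 and no extreme values 59, in place of 355. By gene or gene start, these settings gave 1 to 6 calls over all genes (5 in the main fit), and 0 over all intervals. Replicate numbers showed no sign of pairing the samples (correlations of deviations over windows -0.012, -0.017 and -0.001). Noise of single windows at unknown depth could hide a pairing, so its absence is not shown. With the replicate block 0 windows, 0 genes and 0 intervals of the clusters passed (over all windows 185 in place of 355, over all genes 1 in place of 5). Leaving out 1 sample gave 0 to 1 windows, 0 to 0 genes and 0 to 0 intervals of the clusters. Over the whole genome it gave 680 to 998 windows, 3 to 17 genes and 0 to 1 intervals. Left-out samples moved the histone gene against between difference from -33.1 to -31.6, that to genes between both clusters from -29.7 to -29.1, to other histone loci from -34.3 to -33.5 and to Hox windows from 8.44 to 9.28, with an exact sign permutation p of 0.0625, the smallest for 5 samples. Medians turned the Hox difference to -3.41. Age differences changed sign as follows, none past a threshold. Widened spans gave -2.96 for H1f5 and 0.155 for H2ac11. Start windows gave 0.282 for H4c1, 0.272 for Srrt, -0.252 for Ccne1 and 0.254 for Chaf1a. Without the copied block the differences were 0.199 for windows between, 0.463 for compact genes, 1.10 at 1 to 5 kb (0.589 with medians, 0.85 without extreme values) and 0.176 where no gene lies. Medians gave 0.103 for other genes. Left-out samples gave -1.61 to 0.061 for windows between, -0.741 to 0.433 for compact genes, -0.219 to 4.62 for histone windows of the first cluster, -4.65 to 0.642 at 1 to 5 kb, -1.10 to 0.354 for other genes, -2.24 to 0.015 where no gene lies, -2.64 to 2.23 for H2A and -0.108 to 3.79 for H2B. Start windows and the copied block were added as alternatives after the data were seen. The cause of these changes was not tested. Unknown coverage limits every value.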
